A study of Macaca mulatta with 38 samples.

Results

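The minor barcodes of circulating nucleated red cells are the barcodes that accompanied the 6 dominant ones in the nRBC libraries of 1 rhesus macaque. A barcode was a member if it had reads in at least 1 of the 5 nRBC libraries, a mean below 10% of reads over them, and less than 0.2% of reads in the Gr and in the Mono library of day 119. 198 of the 44423 sequences in the table met these conditions, out of 225 listed in any nRBC library. Of the other 27, 6 were the dominant barcodes, bc1 to bc6, and 21 were above the day 119 limit. Barcodes are numbered by mean share over all 38 libraries, bc1 being the highest. The members were thus chosen by their shares in nRBC and in Gr and Mono of day 119, and these values are given as description only.

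The animal, ZL34, was a male of 4 years. Its own CD34+ cells were mobilised with G-CSF and AMD1300 (as the labels write it), exposed to a barcoded lentiviral library at a multiplicity of infection of 25 and returned after TBI, and cidofovir was given weekly at 5 mg/kg. All libraries share this background and come from peripheral blood. They comprise 5 nRBC libraries (days 266, 309, 393, 494 and 553), 9 T, 8 B, 7 Gr and 7 Mono libraries (days 32 to 553), 1 EOS library (day 494) and 1 CD34p library (day 553). Days 309 and 393 have no Gr or Mono library, and day 309 has no T or B library either. A given lineage and day is represented by a single library of this animal, so no value below has a biological replicate. Barcode DNA carries no cell type markers, so the labelled cell types could not be checked against any.

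A lentiviral barcode is copied into the genome of a stem or progenitor cell and passed on to every descendant. At a high multiplicity of infection 1 cell can carry several barcodes. Red cell precursors lose their nucleus before they normally enter the blood, so nucleated forms in the circulation are what allows barcode DNA of the erythroid line to be read from blood. A share is the percent of a library's reads that carry a barcode, so a fall of one barcode and a rise of the others cannot be told apart. The libraries hold 766039 to 3832849 reads, the nRBC libraries 3536732 to 3832849. The smallest count above 0 in the table is 101, so a barcode listed at 0 was taken to have 100 reads or fewer, which is at most 0.00283% in any nRBC library and 0.0131% in the shallowest library, T of day 494.

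The following sequences are the members on which the results turn. The first 6 bases, alike in most sequences, are in lower case, and capitals mark the bases that tell barcodes apart, up to the start of the sequencing adapter. bc11 is the most abundant member. bc267 and bc209 were seen in nRBC on days 266 and 309. bc13, bc19 and bc23 are abundant in T. bc3448 was the most abundant member after bc11 on day 393, and the last 3 were listed in no library other than nRBC of day 393.
bc11: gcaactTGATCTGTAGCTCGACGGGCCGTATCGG
bc267: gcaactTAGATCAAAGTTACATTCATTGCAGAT
bc209: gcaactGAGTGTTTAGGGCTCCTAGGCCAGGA
bc13: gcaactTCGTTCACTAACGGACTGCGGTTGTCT
bc19: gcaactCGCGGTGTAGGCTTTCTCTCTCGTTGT
bc23: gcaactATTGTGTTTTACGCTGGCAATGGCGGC
bc3448: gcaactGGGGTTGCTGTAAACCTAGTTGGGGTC
bc21518: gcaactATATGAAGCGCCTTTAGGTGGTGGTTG
bc42681: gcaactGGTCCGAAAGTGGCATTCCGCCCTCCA
bc22778: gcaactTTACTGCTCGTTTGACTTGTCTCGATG

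In sequence the members resembled the table as a whole and none was a near copy of a dominant barcode. 197 of the 198 (99.5%) began with the same 6 bases, as did 98.5% of all sequences, and 158 (79.8%) had 33 bases before the adapter, against 79.2% of all. The median GC content after the first 6 bases was 51.9% in members and 53.6% in all sequences. Over the first 33 bases, the smallest edit distance from a member to any of the 6 dominant barcodes was 9, with a median of 14. The nearest other sequence anywhere in the table was 7 to 10 edits away. Each member thus differs from every dominant barcode by at least 9 edits, which is a measurement on the deposited sequences. Whether like reads were merged before deposit is unstated in the sources used here.

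The minor barcodes took very different forms on the 5 nRBC days. On days 266, 309, 393, 494 and 553 they held 0.542%, 6.10%, 1.80%, 0.0521% and 0.138% of nRBC reads. The number of members listed was 7, 4, 191, 3 and 2. The exact 95% intervals, for counting error only, were 6.07 to 6.12% on day 309 and 1.79 to 1.82% on day 393. Day 309 therefore had the highest share and day 393 the most members. At day 309 nearly all of it was bc11 (6.09%), and the other 3 members listed held 0.0130% together. At day 393 bc11 held 0.0538% and the other 190 members 1.75%. The remaining reads were those of the dominant barcodes, 99.3%, 93.2%, 98.2%, 99.9% and 99.9% on these days, and of the 21 barcodes above the day 119 limit.

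Most members were seen in nRBC once. 192 had reads in 1 nRBC library, 5 in 2 and only bc11 in all 5. 187 were listed on day 393 alone, 4 on day 266 alone and 1 (bc3876) on day 309 alone. bc267 and bc209 were listed on days 266 and 309, bc19 and bc23 on days 393 and 494, and bc13 on days 393 and 553. The list of members thus rests on 1 library, since without nRBC of day 393 the same conditions leave 11.

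The 21 barcodes above the day 119 limit were listed mostly on a different day. 20 of them were listed in nRBC of day 309, with 0.728% of reads together, and 4 in nRBC of day 393, with 0.0146%. The 4 were bc7 to bc10, which held 0.149%, 0.122%, 0.133% and 0.221% on day 309. Day 309 thus combined bc11 with barcodes that were high in Gr and Mono on day 119, whereas day 393 listed mostly barcodes that were low there. The rule used these same values, so the contrast is a description only. Gr and Mono of day 119 listed 2013 and 808 of the 44423 sequences, so most sequences of the table were low there. The limits fell in gaps between values. The members closest to the limit were bc209, with 0.0998% in Gr and 0.0608% in Mono of day 119, bc66 with 0.0485% and 0.0418%, and bc63 with 0.0462% and 0.0455%. The closest barcodes outside it were bc54 with 0.417% and 0.513%, bc71 with 0.670% and 0.439% and bc49 with 0.694% and 0.557%. For the nRBC mean, bc11 at 1.36% was the highest member and bc6 at 14.3% the lowest of the dominant barcodes.

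bc11 was listed in no library of days 32 and 119 and in all but 1 of the later ones. Over the 5 nRBC days its share was 0.483%, 6.09%, 0.0538%, 0.0463% and 0.135%. For Mono the shares of days 187, 266, 365, 494 and 553 were 1.23%, 3.38%, 6.47%, 0.0525% and 0.130%. In Gr it was listed at 0 on day 187 and held 0.0738%, 7.95%, 5.86% and 0.151% on days 266, 365, 494 and 553. Its highest share in Mono and in Gr was thus on day 365, between the nRBC days 309 and 393.

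The highest shares of bc11 in T and B were below those in nRBC, Gr and Mono. T had 0.0150%, 0.441%, 1.03%, 0.114%, 0.190%, 0.191% and 0.0358% on days 187, 266, 365, 393, 494, 536 and 553. B had 0.0473%, 1.09%, 0.595%, 0.136%, 0.271% and 0.0449% on the same days other than 536. EOS of day 494 had 0.0724% and CD34p of day 553 had 0.133%. At day 553 the nRBC share of 0.135% lay between those of Gr (0.151%) and of CD34p (0.133%) and Mono (0.130%), with B and T lower.

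Set against the dominant barcodes of the same library, bc11 also differed widely. As a percent of the summed share of bc1 to bc6, nRBC had 0.486, 6.53, 0.0548, 0.0464 and 0.135 over its 5 days. Mono had 8.40, 8.22, 7.06, 0.0525 and 0.130 over days 187, 266, 365, 494 and 553. Gr had at most 0.403 on the first of these days, where bc11 was listed at 0, and then 0.474, 8.67, 6.23 and 0.151. Among the days from 187 on, nRBC was high on day 309, Mono up to day 365, and Gr on days 365 and 494.

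In T and B the same ratio was 2.43 or more in every library from day 187 to day 494. T had 2.43, 8.17, 7.18, 3.90, 4.78, 1.46 and 0.0733 over days 187, 266, 365, 393, 494, 536 and 553. B had 11.4, 10.3, 8.23, 3.96, 5.12 and 0.109 over the same days other than 536. Libraries of 1 day differed on several days. At day 266 the ratio was 0.486 in nRBC and 0.474 in Gr, against 8.22 in Mono, 8.17 in T and 10.3 in B. At day 393 it was 0.0548 in nRBC, against 3.90 in T and 3.96 in B. At day 494 it was 0.0464 in nRBC, 0.0525 in Mono and 0.0727 in EOS, against 4.78 in T, 5.12 in B and 6.23 in Gr. At day 553 it was 0.135 in nRBC and lay between 0.0733 and 0.151 in all 5 other libraries.

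This spread was not shared by the dominant barcodes. Over the 28 libraries in which they made up at least 1% of reads, the share of each of the 6 within their sum varied 1.31- to 2.10-fold between its lowest and highest value. In the 27 of these that listed bc11, its ratio ran from 0.0464 to 10.3, or 222-fold. Over the 31 libraries that did not choose the members, the barcodes most like bc11 on log2(percent + 0.01) were nonetheless bc2, bc3 and bc5, with r of 0.70, 0.69 and 0.69. The other dominant barcodes followed, and the next barcode had r of 0.42. These correlations share libraries and depth and are a description without a test.

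bc267 and bc209 were the other members of days 266 and 309. bc267 held 0.0373% and 0.00594% in nRBC of these days. On day 266 it also had its highest share in T (0.196%), B (0.0531%), Gr (0.0273%) and Mono (0.0345%). In T the next highest was 0.0158% on day 536, and in Mono 0.0118% on day 32. In Gr it was 0.0105% on day 32 and 0.0202% on day 187. bc267 was listed at 0 in Gr and Mono from day 365 on. In B it was listed in 7 of 8 libraries and ranged from 0.00761% to 0.0531% where listed. Day 266 was therefore its highest day in all 5 of these lineages.

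bc209 had 0.00591% and 0.00359% in nRBC of days 266 and 309. It held 0.0747% in Gr of day 187, 0.0408% in Mono of day 187 and 0.0259% in Mono of day 266. It was listed at 0 in Gr from day 266 and in Mono from day 365. In T it was highest on day 266 (0.0579%) and had 0.00326% on day 553. The 4 members listed in nRBC of day 266 alone, bc91, bc92, bc109 and bc139, held 0.00297 to 0.00459% there. All 4 were highest in T of day 494, at 0.140%, 0.190%, 0.192% and 0.156%.

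7 members formed a set that varied together and was abundant in T. Of 18915 pairs among the 195 members with reads outside the libraries of the rule, 26 had r of at least 0.95 over the 31 libraries. In 22 of them both barcodes were listed in at least 5 libraries. These joined bc18, bc13, bc28, bc15, bc23, bc19 and bc21 into 1 set, and bc63 and bc66 into another. The median r of all pairs was 0.31. All 7 members of the first set were listed in nRBC of day 393, at 0.00273 to 0.00471% each and 0.0265% together. At day 494 bc19 and bc23 remained in nRBC with 0.00577% together, and on day 553 bc13 with 0.00309%.

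In other lineages the set of 7 was found mainly in T. On day 393 it held 0.0265% in nRBC, against 9.46% in T and 0.0570% in B. On day 494 it held 0.00577% in nRBC, against 32.9% in T, 0.107% in B, 0.0892% in EOS and 0.0143% in Gr, and was listed at 0 in Mono. On day 553 it held 0.00309% in nRBC, against 8.74% in T, 0.0589% in B, 0.0364% in Gr, 0.00813% in Mono and 0.00628% in CD34p. bc13 itself held 0.00413% in nRBC of day 393, against 1.53% in T and 0.0155% in B. bc19 held 0.00394% in nRBC of that day, against 1.55% in T and 0.00717% in B. The nRBC share of the set was below that of T on each shared day.

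bc63 and bc66, the pair with the highest Gr shares after bc11, were each listed in 1 nRBC library, day 393, with 0.00634% and 0.00521%. bc63 reached 0.316% in Gr and bc66 0.267%, both on day 266. In B they were highest on day 494, with 0.196% and 0.146%. In Mono they were highest on day 187, with 0.117% for bc63 and 0.133% for bc66. Both were listed in 8 of 9 T libraries. Neither was listed in Gr or Mono of days 494 and 553.

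Day 393 brought a broad list of small shares. The 190 members other than bc11 had 101 to 1543 reads each in nRBC of that day, with a median of 241 reads or 0.00634% and quartiles of 0.00389% and 0.0113%. No barcode led them. The highest was bc3448 at 0.0406%, the 10 highest made up 18.4% of their sum, and their effective number, the exponential of the Shannon entropy, was 144. A member with 101 reads is at the edge of being listed, so the length of the list depends on the inferred limit of 100 reads.

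The day 393 members were on the whole barcodes seen in several lineages on other days. Besides bc3448, the highest were bc217 (0.0351%), bc246 (0.0343%), bc302 (0.0342%), bc2303 (0.0332%), bc1645 (0.0317%), bc301 (0.0303%) and bc306 (0.0285%). bc246 held 0.0343% in nRBC of day 393, against 0.0207% in T and 0.0249% in B of that day, and 0.0605% and 0.0812% in Gr of days 187 and 266. bc302 held 0.0342% in nRBC, against 0.0181% in T and 0.0297% in B of day 393, and 0.0706% and 0.0727% in Gr of days 187 and 266. bc3448, by contrast, held 0.0406% in nRBC and was listed at 0 in T of day 393, with 0.00911% in B and at most 0.0163% anywhere else. bc217 held 0.0351% in nRBC and was listed at 0 in T of day 393, but had 0.404% in T of day 32. That T library listed only 525 sequences, with a median share of 0.201%.

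Some members had their highest listed share in the red cell library. For 22 of the 190 the share in nRBC of day 393 was above every listed share in the 33 libraries of other cells. With each listed 0 set to the 100 reads it can hide, this held for 16, and the other 6 could not be placed. The 190 were chosen for having reads in this same library, and no like count is given for another library. The 22 are therefore a description only. Among the 22, bc7190 held 0.0247% in nRBC and at most 0.00748% elsewhere, in 4 libraries. bc7973 held 0.0249% in nRBC and at most 0.00581% elsewhere, also in 4 libraries. On the same day, nRBC was higher for 37 and lower for 55 of the 92 members that T listed, and higher for 50 and lower for 95 of the 145 that B listed. The members were chosen for being listed in nRBC, so those at 0 in T or B are left out of these counts. 3 members, bc21518, bc22778 and bc42681, were listed in no other library, with 508, 470 and 144 reads, or 0.0134%, 0.0124% and 0.00379%, in nRBC of day 393.

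On day 393 itself B listed more of these members than T, as it did of sequences in general. Besides the dominant barcodes and bc11, B listed 11617 sequences and T 5882. B listed 145 of the 190 (76.3%), against 25.9% of the other sequences. T listed 92 (48.4%), against 13.1% of the others. 86 were listed in both, 59 in B and not T, 6 in T and not B, and 39 in neither. This split is not given for the other sequences. The other sequences here leave out the dominant barcodes, and they include many that were listed in few libraries. All 44423 sequences had a median highest share of 0.00799% and were listed in a median of 2 of the 31 libraries outside the rule, against 0.0281% and 11 for the 198 members. The part of this difference in abundance in the counts above was not tested.

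The earlier Gr and Mono libraries also listed most of them. 162 of the 190 were listed in Gr or Mono of day 187 or 266. Gr of day 187 listed 137 (72.1%) and Gr of day 266 listed 135 (71.1%), against 10.4% and 10.7% of the other sequences. Mono listed 100 (52.6%) and 111 (58.4%) on these days, against 6.72% and 8.03%. 30 of the 190 were listed in any Gr, Mono, EOS or CD34p library from day 365 on. Gr of day 365 listed 12 (6.32%), against 0.113% of the other sequences, and Mono of day 365 listed 28 (14.7%), against 0.366%. These libraries listed few barcodes of any kind, 62 in Gr and 190 in Mono besides the dominant ones and bc11, and Mono of day 494 listed 5, of which 1 was a member. The fall in the number of members listed from day 365 on was thus shared by all sequences, and members were still listed more often than other sequences in both libraries of day 365.

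Abundance in other libraries went with listing in nRBC of day 393 to different degrees. Leaving aside bc11 and the dominant barcodes, 32 of 160 barcodes with at least 0.05% in Gr of day 187 (20%) and 34 of 195 in Gr of day 266 (17.4%) were listed in nRBC of day 393. The same held for 15 of 132 in T of day 393 (11.4%) and 7 of 91 in B of day 393 (7.69%). In Mono of day 365, 4 barcodes reached 0.05% and all 4 were listed in nRBC of day 393. These were bc7 to bc10, which are not members, as the highest of the 190 members held 0.0179% there. The counts for Gr, T and B also take in any of bc7 to bc10 that reached 0.05%. Of the 20 most abundant such barcodes in T of day 393, 11 were listed in nRBC, namely the T set of 7 and bc7 to bc10, and of the 100 most abundant, 13. Of the 20 most abundant in B, 2 were listed, and of the 100 most abundant, 8. Among the 190 members, the correlation of the log2 share in nRBC of day 393 with that in another library outside the rule ran from -0.21 to 0.20. Over all barcodes but the dominant ones and bc11, the correlation of square-root shares was highest with Gr of day 266 and Gr of day 187, both at 0.17, and lowest with B of day 32 at -0.01. All of these correlations are weak, and they are given as a description.

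Taken over all days, most members were shared by all 4 well-sampled lineages. Outside the libraries of the rule, 154 of the 198 (77.8%) were listed in T, 191 (96.5%) in B, 175 (88.4%) in Gr and 164 (82.8%) in Mono. Among all sequences the shares were 39.9%, 81.2%, 30.8% and 30.7%. 134 members (67.7%) were listed in all 4, against 9.76% of all sequences. 21 (10.6%) were listed in B, Gr and Mono but not T, against 4.75% of all sequences. 11 (5.56%) were in T, B and Gr but not Mono, against 4.40%. 8 (4.04%) were in B and Gr alone, against 5.73%, and 7 (3.54%) in T and B alone, against 11.1%. 5 (2.53%) were listed in B alone, against 35.3% of all sequences, 3 (1.52%) in Mono alone, against 3.52%, and 3 nowhere. The shares for T, B and Gr without Mono and for B and Gr alone were near those of all sequences.

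No member was seen in T alone or in Gr alone. None of the 3632 sequences listed in T and none of the other 3 lineages was a member, and none of the 1621 listed in Gr alone. Of the 15682 listed in B alone, 5 were members, and of the 4335 listed in all 4 lineages, 134 were (3.09%). Members in all 4 lineages had a median highest share of 0.0395% over the 31 libraries, against 0.0223% for all sequences in all 4. EOS of day 494 listed 36 sequences, of which 9 were members: bc11, the set of 7 and bc63. CD34p of day 553 listed 12, of which 3 were members: bc11 with 0.133%, bc18 with 0.00347% and bc15 with 0.00281%. Each of these cell types has a single library.

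Most members were first listed on a day before the first nRBC library. 105 of the 198 had their first reads in some library of day 32, 70 on day 119, 15 on day 187, 4 on day 266 and 4 on day 393. The first nRBC library is of day 266, so earlier reads could only be in other cells. The first day is not given for all sequences, so these counts describe the members and set them apart from no others. bc11 was among those first listed on day 187. Among the 190 of day 393, 101 were listed in some library of day 32, and 80 in Gr or Mono of day 32. By library of day 32, Gr listed 17.9% of the 190, against 19.9% of the other sequences, and B 25.3% against 35.6%. Mono listed 34.2% against 22.9%, and T 3.16% against 1.17%. Listing on day 32 was thus near that of the other sequences in Gr, below it in B and above it in Mono. The value in T rests on 6 members, in a library that listed 525 sequences.

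The summed share of the members outside nRBC followed different courses by lineage. The T libraries, from day 32 to day 553, had 1.27%, 0.693%, 4.99%, 8.82%, 9.79%, 11.0%, 34.7%, 27.3% and 9.58%. The set of 7 held 32.9% of the 34.7% on day 494. In B the sum lay between 0.343% on day 32 and 4.38% on day 494, with a median of 2.35% over 8 libraries. In Gr without bc11 it was 0.475%, 1.14%, 4.63%, 5.24%, 0.0740%, 0.0236% and 0.0364% on days 32, 119, 187, 266, 365, 494 and 553. In Mono without bc11 it was 0.764%, 0.651%, 1.71%, 2.0%, 0.210%, 0.00584% and 0.00813%. Without bc11, the sums in Gr and Mono were highest on days 187 and 266. The sums of different lineages were carried by different members. The set of 7 was listed at 0 in Gr of both days and had its highest Gr and Mono shares, 0.0389% and 0.0940%, on day 365.

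Single members were tested between lineages only in libraries that the rule had not used. T, B and Mono were each set against Gr with edgeR's quasi-likelihood test over the 6 days 32, 187, 266, 365, 494 and 553, with day as a block. A barcode was tested if it reached 0.05% of reads in 2 or more libraries of the fit, and a barcode was called at a Benjamini-Hochberg adjusted p below 0.05. 39 of the 198 members entered the comparison of T with Gr, 33 that of B and 31 that of Mono. In each, 0 members were called and 0% of all barcodes tested (250, 238 and 141) were called in either direction. At an unadjusted p below 0.05 there were 43 barcodes in T against Gr, of which 7 were members, 10 in B with 1 member and 0 in Mono. Serial days of 1 animal are not independent samples, so these p-values do not measure spread between animals.

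The 7 members at an unadjusted p below 0.05 in T against Gr were the set abundant in T. They had been grouped in these same libraries and passed the filter only through T, since none exceeded 0.0122% in Gr, so their p-values are no independent evidence and their values are given as description. In T, bc18 averaged 1.58% ± 1.70, against 0.00138% ± 0.00225 in Gr (SD over 6 days). In T, bc13 averaged 1.71% ± 2.0, against 0.00507% ± 0.00466 in Gr (SD over 6 days). Each of the 7 was higher in T on 5 of 6 days and listed at 0 in T of day 32. bc11 averaged 0.286% ± 0.402 in T, 0.342% ± 0.429 in B and 2.34% ± 3.60 in Gr (SD, n = 6 days). Its log2 change was -0.84 ± 3.57 in T and -0.73 ± 2.54 in B (SE derived from the test's F statistic), with adjusted p of 0.895 and 0.866 by edgeR. Each standard error is the size of the change divided by the square root of F, so it repeats what the p-value states. Both exceed the changes of bc11.

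DESeq2 gave more calls than edgeR in T and B. In T against Gr it called 111 of 250 barcodes (44.4%), 90 higher (36%) and 21 lower (8.4%) in T. Of the 39 members tested it called 15 (38.5%), 9 higher and 6 lower in T. The 9 included the set of 7 abundant in T, which passed the filter only through T. Among the 6 were members listed at 0 in T on every day tested, which passed only through Gr. Such calls are no independent evidence. In B against Gr it called 161 of 238 (67.6%), 152 higher (63.9%) and 9 lower (3.78%) in B. Of the 33 members tested it called 21 (63.6%), 20 higher and 1 lower in B. Higher and lower here are the sign of DESeq2's log2 change, with its size factors and day block, and not of the mean share. Among the 20 were members, such as bc168 and bc254, whose mean share was lower in B than in Gr. The sign of these calls is therefore not read as a higher share in B. The shares of members called were thus near those of all barcodes tested. DESeq2 called bc11 lower in T, with a log2 change of -4.59 and an adjusted p of 0.0330, and did not call it in B, with an adjusted p of 0.770. In Mono against Gr it called 0, with 1 at an unadjusted p below 0.05. Over the members tested by edgeR the median log2 change was 1.86 in T, 6.74 in B and -0.14 in Mono, against 7.16, 7.69 and 0.02 over all barcodes tested. These medians include barcodes listed at 0 in several Gr libraries and are not folds.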

How the data were processed

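Lentiviral barcodes were read by PCR from blood cell DNA (200 ng, 28 cycles, per the labels' protocols). The authors deposited 1 table of read counts for 44423 sequences of 50 bases in 38 libraries. All values are whole, and column sums differ, which is why they are treated as raw counts. Neither the barcode caller nor any merging of reads is stated in the sources used here.

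Columns were matched to samples by title. Shares are percents of the column sum, and the depth is the reads of listed barcodes only. Reads were amplified and no molecular identifiers are described, so exact Clopper-Pearson 95% intervals cover counting error only. The tests were edgeR 4.0.16 on column sums and, as an alternative, DESeq2 1.42.0 with size factors from positive counts (R 4.3.3). The edgeR script was checked on simulated counts. Edit distances were computed in Python 3.11.15. The members, lists and tests were chosen with earlier results of these data known.

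Barcodes named are the 15 members highest in nRBC, those in 2 or more nRBC libraries, the 3 highest in each other cell type, those next to the limits, and those called by edgeR. bc7 to bc10, bc28, bc91, bc92, bc109, bc139, bc3876 and the 3 found only in nRBC were named after their values were seen. The labels name no sequencing batch.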

Additional observations from a re-analysis of the deposited data

Results flagged for a closer look

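45 sets of values (summed share, members listed, bc11 and the 5 other members found in 2 or more nRBC libraries, by lineage) were examined for a library far from the others of its lineage, of which 12 held one. For independent replicates chance would give about 1 in 20, but days of a lineage are a time series and not replicates. The nRBC values were also used by the rule, and several sets hold the same reads of bc11. The count of 12 in 45 is therefore a description and not a test. In nRBC, day 309 stood apart for the summed share of the members (6.10%, next 1.80%), for bc11 (6.09%, next 0.483%) and for bc11 as a percent of the dominant barcodes (6.53, next 0.486). nRBC of day 393 stood apart for the number of members listed (191, next 7). In B, day 32 had the fewest members listed (50, next 108). bc11 was highest in T at day 365 (1.03%, next 0.441%).

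bc267 stood apart on day 266 in 4 lineages, with 0.0373% in nRBC (next 0.00594%), 0.196% in T (next 0.0158%), 0.0531% in B (next 0.0236%) and 0.0345% in Mono (next 0.0118%). In Mono of day 365, bc13 had 0.0173% (next 0.00642%) and bc19 had 0.0159%, with bc19 listed at 0 in the other Mono libraries.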

How the results depend on the processing

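The counts of members rest on nRBC of day 393 and on low counts. Leaving out each nRBC library in turn gave 11 to 198 members, with 11 to 154 listed in T, B listing 11 to 191, Gr 11 to 175, Mono 11 to 164, EOS 4 to 9 and CD34p 1 to 3, the low values all without day 393. Members listed in at least 2 nRBC libraries numbered 6, of which 6 were in T, B, Gr and Mono, 4 in EOS and 1 in CD34p, and held 0.0655% of nRBC reads on day 393. With only counts of at least 0.01% taken as listed there were 59 members, of which 28 were in T, 41 in B, 37 in Gr, 29 in Mono, 1 in EOS and 1 in CD34p, and they held 1.11% on day 393. Without the day 119 limit the sums were 6.83% on day 309 and 1.82% on day 393, with 21 barcodes in EOS and 5 in CD34p. Without bc11, an alternative chosen after seeing the data, the sums were 0.0130% and 1.75%. Limits of 0.1% and 0.5%, and removing sequences within 2 edits of a dominant barcode, kept every one of these values. They could not change the list. No nRBC barcode had its higher day 119 share between these limits, and every member was at least 9 edits from a dominant barcode. The 26 pairs became 15 with a pseudocount of 0.001 and 71 at r of at least 0.90.

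In T against Gr, edgeR's 0 calls became 111 with DESeq2 (15 members) and 32 without the day block, that is with no replicate block (8 members). Both lists hold members of the T set, which passed the filter only through T. In B against Gr, 0 became 161 with DESeq2 (21 members), 9319 with no filter (3 members) and 6 without the day block (1 member). The counts stayed at 0 with each day left out, in all 3 comparisons. The direction of bc11 was not stable. Its log2 change in T against Gr was 0.28, 0.52 and 0.00152 without days 365, 494 and 553, and -1.97 at the lowest, without day 187. In B against Gr it was 3.92 with TMM factors and 0.96, 1.04 and 0.32 without those days, and -2.06 at the lowest, without day 187. In Mono against Gr it was 1.12, and -0.32 without the day block, -0.27 without day 187 and -0.22 without day 266, with 3.06 at the highest, without day 494. The cause was not tested. A listed 0 can hide up to 0.0131% in T and 0.0127% in B of day 494, against 0.00263% in nRBC of day 393.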
